A study of Mus musculus with 8 samples.

Results

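Cytosolic ribosomal protein genes encode the protein parts of the 60S and 40S ribosomal subunits, which carry out translation in the cytoplasm. They were taken as every gene whose only symbol in the array's annotation was a ribosomal protein symbol (Rpl or Rps with a number and, for some, a letter or a paralogue ending) or Rplp0, Rplp1, Rplp2 or Rpsa. This gave 60 of the 19938 genes fitted: 33 of the large subunit, 20 of the small subunit and 7 paralogues or copies. The other 53 are called core genes here. Expression was measured in mouse bone marrow cells 72 h after lentiviral transduction, with 4 arrays labelled KLF7 and 4 arrays labelled control. In the KLF7 group, c-Kit+ cells had received a lentivirus that expressed KLF7, a transcription factor of the Krüppel-like family. In the control group, c-Kit+ cells had received a control virus. All cells came from C57Bl/6 bone marrow, and the lineage-negative, c-Kit+, Sca-1+ (KLS) fraction, which is enriched for haematopoietic stem and early progenitor cells, was sorted after the transduction in both groups. The design asked how expression differs between progenitors that overexpress KLF7 and controls. The labels do not say which promoter drove KLF7, what the control virus carried, or whether each array had its own culture or animal, so a p-value measures no more than the variation among these 8 arrays, part of which may be technical.

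Ribosomal proteins are made in matched amounts, and each subunit is assembled from one copy of nearly every protein. Their mRNAs are the classical 5′ terminal oligopyrimidine (TOP) mRNAs. Such an mRNA begins with a cytosine followed by an unbroken run of pyrimidines, and mTOR signalling and Larp1 control its translation through that run. Blood formation is sensitive to the supply of ribosomal proteins: in humans, loss of 1 copy of any of several of these genes causes Diamond-Blackfan anaemia, a failure of red cell production. Transcription of these genes is promoted by Myc, among other factors.

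Of 79 core genes listed, 53 were measured by the rule. A further 16, Rpl3, Rpl11, Rpl15, Rps16, Rps23 and Rps24 among them, were covered only by probe sets that carry several symbols, 8 had no probe set under their name, and Fau and Rps3a1 carried 1 symbol but stand outside the rule. Many ribosomal protein genes have processed pseudogenes of nearly the same sequence, so a probe set may also read a copy, and the values below carry that uncertainty. Klf7 itself, which checks the labels, had log2 intensities of 11.43, 10.19, 11.05 and 10.52 on the KLF7 arrays, against 8.53, 10.28, 9.35 and 7.98 on the control arrays (each in order of replicate number). The difference was 1.76 (SE 0.46), with an adjusted p of 0.327 in limma and a p of 0.0571 in an exact permutation test, where 0.0286 is the smallest p that the 70 splits allow. Control 2 by its label exceeded KLF7 2 by its label, so directions below are those of the labels. Kit, whose product was used in the sort, had log2 levels of 10.52, 9.96, 10.37 and 7.85 on the KLF7 arrays and 9.57, 9.85, 9.69 and 8.33 on the control arrays, so both arrays numbered 4 stood apart from the others. The gene of Sca-1 is not analysed here.

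The start of each transcript carries the letters by which these mRNAs are recognised, and they are shown first. Windows of 40 bases before to 20 bases from the annotated transcription start (RefSeq, GRCm38.p6) were available for 48 of the 60 genes, 42 of them core genes. Capitals mark each unbroken run of at least 7 pyrimidines, counted from its first C, on the strand that matches the mRNA. Any T directly before that C, as in the Rplp2 window, is not counted in the run. Rps6, Rps21, Rplp2, Rpl14 and Rpl27a are shown, the fifth for its long run, of 20 letters. Like every core gene, these 5 have lower means on the KLF7 arrays. All 5 were picked as windows whose run covers the annotated start, which most core genes' windows do not show.
Rps6, chr4:86857348-86857407, minus strand: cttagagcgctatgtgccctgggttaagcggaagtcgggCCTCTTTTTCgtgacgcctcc
Rps21, chr2:180257339-180257398, plus strand: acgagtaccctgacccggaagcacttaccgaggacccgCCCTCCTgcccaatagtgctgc
Rplp2, chr7:141447611-141447670, plus strand: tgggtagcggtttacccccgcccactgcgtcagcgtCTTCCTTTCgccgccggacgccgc
Rpl14, chr9:120571477-120571536, plus strand: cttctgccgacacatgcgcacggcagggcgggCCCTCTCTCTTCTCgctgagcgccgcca
Rpl27a, chr7:109519155-109519214, plus strand: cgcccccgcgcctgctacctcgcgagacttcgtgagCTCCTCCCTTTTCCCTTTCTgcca
Rps21 had a further window, not shown, whose run of 10 letters lies upstream of the annotated start. The following windows hold no such run. Rpsa and Rplp0 are shown as core genes, again with lower means on the KLF7 arrays, and Rpl3l as the paralogue with the highest difference.
Rpsa, chr9:120127726-120127785, plus strand: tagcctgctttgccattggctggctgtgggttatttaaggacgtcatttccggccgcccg
Rplp0, chr5:115559427-115559486, plus strand: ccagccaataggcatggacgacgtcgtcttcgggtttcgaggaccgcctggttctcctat
Rpl3l, chr17:24727786-24727845, plus strand: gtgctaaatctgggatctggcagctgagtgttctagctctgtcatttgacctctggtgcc

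A run of this kind was found anywhere in the window in 26 of the 42 core genes (61.9%), against 30.9% of the 27025 genes with a window. It covered the annotated start in 13 of the 42 core genes (31.0%), against 5.03% of all genes, and in the other 13 it lay upstream or downstream of the start. On the opposite strand the same search found it in 26.2% of the core genes, against 32.7% of all genes. By subunit, 15 of 25 large subunit genes and 11 of 17 small subunit genes held a run, as did 4 of 6 paralogues. An annotated start can lie some bases from the start that the cells use, so a missing run says only that these letters are not in this window. In the wider window of 250 bases before to 50 after the start, searched on both strands, the ETS core motif CCGGAAG was present in 38.1% of the core genes, against 9.93% of all genes. GC boxes (GGGCGG) were present in 59.5% of the core genes, against 38.2% of all genes. The CACCC box CCACCC was present in 23.8% of the core genes, against 34.0% of all genes. The E box CACGTG was present in 11.9% of the core genes, against 8.09% of all genes, and TATAAA in 11.9%, against 15.7%. These are matches of letters, not sites shown to be bound.

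The core genes were measured at lower mean levels on the KLF7 arrays than on the control arrays, each by a small amount. The mean log2 intensity over the 53 core genes was 10.71, 11.42, 10.93 and 11.42 on the KLF7 arrays, against 11.19, 11.20, 11.36 and 11.62 on the control arrays. The arrays labelled KLF7 1 and KLF7 3 lay below every control array, and the arrays labelled KLF7 2 and KLF7 4 lay above 3 of the 4 controls, so the groups overlapped. The sum of the core genes' intensities spanned 118934 to 195387 units on the KLF7 arrays and 163975 to 220417 units on the control arrays. In bulk RNA of this kind, fewer cells of a type and less RNA per cell cannot be told apart.

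The genes varied together from array to array. KLF7 1 was the lowest of the 8 arrays for 42 of 53 core genes (79.2%). It was the lowest array for 15.2% of all genes and for 36.8% of the 247 genes with a mean log2 level over 10. Of those 247, 44 are core genes themselves, so shares over that set, here and below, partly count the core genes. KLF7 3 was the lowest for 7 core genes (13.2%), against 11.4% of all genes. Relative to each gene's own mean, the median core gene stood at -0.58 on KLF7 1, 0.19 on KLF7 2, -0.25 on KLF7 3 and 0.20 on KLF7 4. On the control arrays the same median was -0.02 on control 1, -0.02 on control 2, 0.10 on control 3 and 0.38 on control 4. All 53 core genes were below their own mean on KLF7 1 and 52 were on KLF7 3, against 3 on KLF7 2 and 8 on KLF7 4. On control 4, 1 core gene was below its mean, and that array was the highest of the 8 for 37 core genes (69.8%), against 14.8% of all genes and 25.9% of those with a mean level over 10. The large and small subunit genes gave the same order of arrays at both ends: KLF7 1 was the lowest array for 25 of 33 and 17 of 20 genes, and control 4 the highest for 26 of 33 and 11 of 20. These counts describe how the genes share their values with the array, and genes of one array are not replicates.

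**Figure D1:**
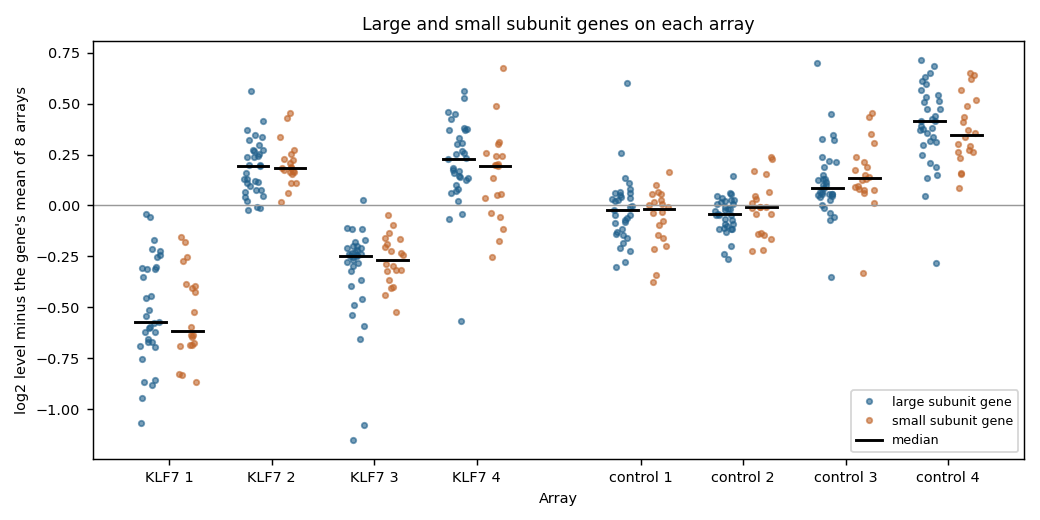
Log2 level of each core gene minus its own mean over the 8 arrays, by array, with large subunit genes in blue, small subunit genes in orange and the median of each as a bar. KLF7 1 and KLF7 3 sit lowest (core medians -0.58 and -0.25), KLF7 2 and KLF7 4 near 0.2, and control 4 highest (0.38).

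The median standard deviation of a core gene was 0.37 over the 4 KLF7 arrays and 0.25 over the 4 control arrays, and it was larger on the KLF7 arrays for 46 of 53 core genes. Of the 247 genes with a mean log2 level over 10, 44 are core genes. Over these 247, the medians were 0.35 on the KLF7 arrays and 0.26 on the control arrays. The value was larger on the KLF7 arrays for 172 of them. Over all genes it was larger on the KLF7 arrays for 11935 of 19938. The difference in spread was not tested.

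Gene by gene, 58 of the 60 members had a lower mean on the KLF7 arrays, all 53 core genes among them. The share was 49.6% over all genes. It was 51.0% over the 247 genes with a mean log2 level over 10, a set that includes 44 of these core genes. The core genes share arrays and vary together, so the 53 are not independent observations. The median difference, KLF7 minus control, was -0.21 over the core genes, -0.18 over the large subunit genes, -0.21 over the small subunit genes and -0.03 over the paralogues, beside 0.00 over all genes. No member passed the test. In limma, with Benjamini-Hochberg adjustment over all genes, the smallest adjusted p was 0.565. An adjusted p under 0.05 was found for 0 members and 0.0% of all genes. With the replicate number as a block, it was found for 90 of 19938 genes and 0 members. At an unadjusted p under 0.05 there were 3 members, Rplp2, Rpsa and Rpl12, all lower, a share of 3 in 60 beside 8.21% of all genes in either direction and 3.56% in the lower and 4.65% in the higher one. The groups did not overlap for 1 member, Rpl3l, which was higher, beside 5.22% of all genes (2.83% higher and 2.38% lower). Other probe sets of the same genes leaned the same way. Of the 216 probe sets that carried 1 member's symbol alone, 213 had a lower mean on the KLF7 arrays, and of 237 further probe sets with several symbols, at least 1 of them of this kind, 236 did, with a median of -0.17. These probe sets read the same 8 RNA samples and add no replicate.

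**Figure D2:**
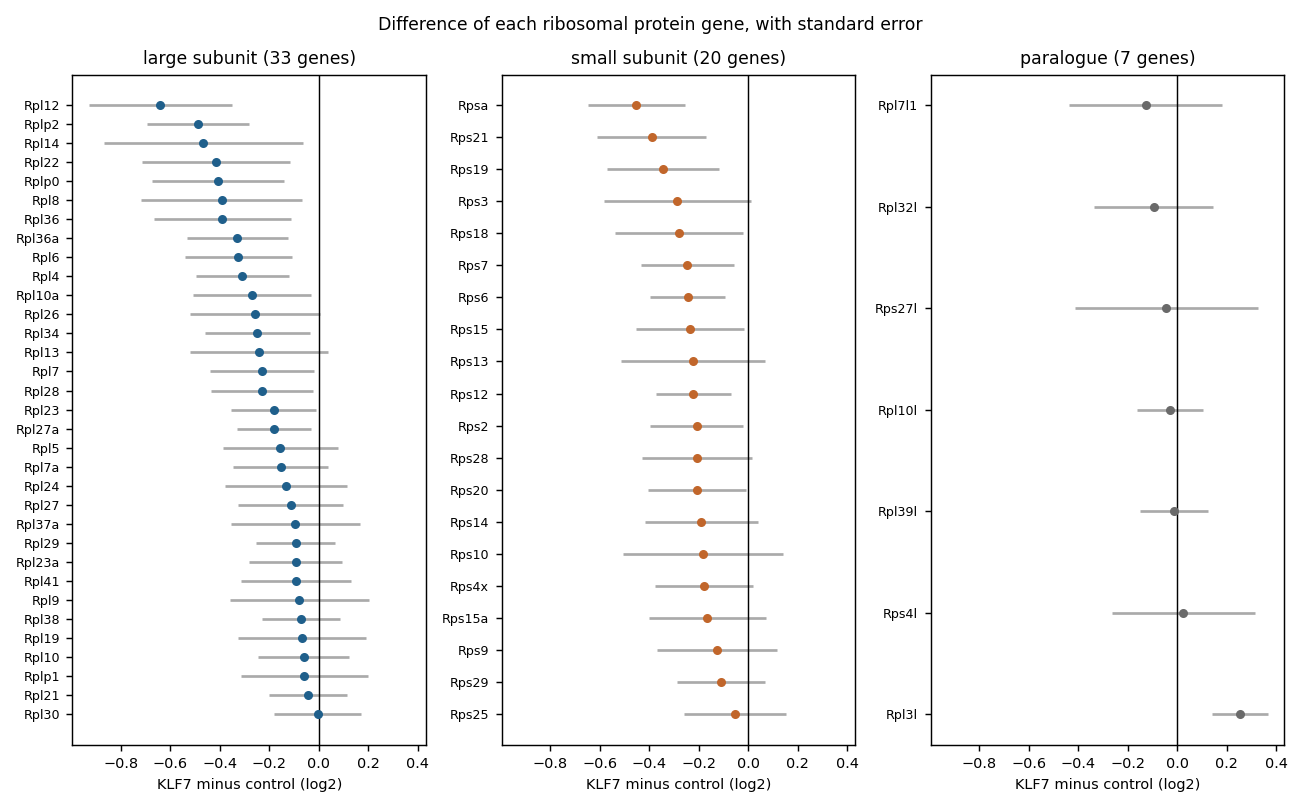
Difference in mean log2 level, KLF7 minus control, of each of the 60 genes (points) with its standard error from limma (lines), for large subunit genes, small subunit genes and paralogues. Every core gene lies left of 0, from -0.64 for Rpl12 to -0.01 for Rpl30, while the paralogues lie on both sides.

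In the large subunit, the proteins of the acidic stalk, which draws elongation factors to the ribosome, included both genes with an unadjusted p under 0.05. Rplp2 encodes one of the P proteins at the tip of the stalk. Its log2 levels were 8.70, 8.86, 8.63 and 8.30 on the KLF7 arrays and 9.47, 8.85, 9.22 and 8.92 on the control arrays. All KLF7 arrays but KLF7 2 lay below every control, and KLF7 2 lay just above control 2. The difference was -0.49 (SE 0.20, 1.40-fold higher in control) with an unadjusted p of 0.0371 and an adjusted p of 0.565 in limma. Among the 8 fits that left out 1 array it ran between -0.58 and -0.37.

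Rpl12, which binds ribosomal RNA at the base of the stalk, had the lowest difference of all members. Its log2 levels were 6.23, 6.46, 5.34 and 6.63 on the KLF7 arrays and 6.51, 6.44, 7.19 and 7.10 on the control arrays. KLF7 3 was far below the other arrays, KLF7 1 was just below the controls, and KLF7 2 and KLF7 4 overlapped the controls. The difference was -0.64 (SE 0.29), with an unadjusted p of 0.0499 and an adjusted p of 0.608 in limma, and it was -0.37 without KLF7 3. The kept probe set was a dim one, with a mean log2 level of 6.49, and 8 other probe sets with this gene's symbol carried further symbols and were not used.

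Rplp0 encodes the protein that anchors the stalk, and its mRNA is often used as a reference in expression assays. Its log2 levels were 11.00, 11.87, 11.01 and 11.98 on the KLF7 arrays and 11.72, 11.66, 11.82 and 12.30 on the control arrays. The KLF7 arrays formed a low pair, KLF7 1 and KLF7 3, and a pair within the range of the controls. The difference was -0.41 (SE 0.27) with an adjusted p of 0.784 in limma, and it was nearer 0 when KLF7 1 (-0.25), KLF7 3 (-0.26) or control 4 (-0.27) was left out. Rplp1, the second P protein, was measured at 11.83, 13.00, 12.48 and 12.91 on the KLF7 arrays, against 12.52, 12.32, 12.67 and 12.94 on the control arrays. Its difference of -0.06 (SE 0.26) lay well within its standard error and was 0.18 without KLF7 1. The partner proteins Rplp1 and Rplp2 thus had differences of -0.06 and -0.49, a gap that was not tested.

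Rpl5, which with Rpl11 and the 5S ribosomal RNA forms a particle that can also bind the p53 regulator Mdm2, had log2 levels of 10.30, 11.25, 10.64 and 11.00 on the KLF7 arrays and 10.65, 10.90, 11.01 and 11.26 on the control arrays. Its difference was -0.16 (SE 0.23, adjusted p 0.943 in limma), and it ran between -0.31 (without KLF7 2) and 0.01 (without KLF7 1) when single arrays were left out. Rpl11 is among the genes covered only by probe sets with several symbols. Rpl4, whose extension lines the tunnel through which the new peptide leaves, was at 11.42, 11.97, 11.56 and 11.94 on the KLF7 arrays, against 11.94, 11.81, 12.09 and 12.29 on the control arrays. KLF7 1 and KLF7 3 again lay below all controls, and the difference was -0.31 (SE 0.19, adjusted p 0.759 in limma). Rpl36a, which lies near the exit site of transfer RNA, was at 10.66, 11.46, 10.81 and 11.22 on the KLF7 arrays, against 11.26, 11.25, 11.44 and 11.52 on the control arrays, a difference of -0.33 (SE 0.20, adjusted p 0.767 in limma) that was -0.20 without KLF7 1. Rpl30 stood at the other end of the large subunit genes, with 7.82, 7.94, 7.65 and 8.02 on the KLF7 arrays and 8.12, 7.84, 7.91 and 7.58 on the control arrays. Its difference was -0.01 (SE 0.18), and both groups covered nearly the same range. Like Rpl12, Rpl30 has many probe sets, 10 of them, that carry further symbols and were left out. The other large subunit genes ran between these values, with Rpl14, Rpl22, Rpl8 and Rpl36 at -0.47, -0.42, -0.39 and -0.39, genes named here after their values were seen.

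In the small subunit, Rpsa had the lowest difference. Its protein is also known as the laminin receptor precursor, and mutations of the gene in humans cause congenital absence of the spleen. Its log2 levels were 11.64, 12.51, 12.03 and 12.21 on the KLF7 arrays and 12.38, 12.56, 12.68 and 12.59 on the control arrays. The controls were close together, and 3 KLF7 arrays lay below all of them, while KLF7 2 lay above control 1. The difference was -0.45 (SE 0.20, 1.37-fold higher in control), with an unadjusted p of 0.0421 and an adjusted p of 0.588 in limma, and it ran between -0.59 and -0.30 (without KLF7 1) when single arrays were left out. Rps21, a neighbour of Rpsa in the subunit, was at 10.90, 11.76, 11.25 and 11.61 on the KLF7 arrays, against 11.57, 11.56, 11.88 and 12.06 on the control arrays. KLF7 1 and KLF7 3 lay below the controls and the other 2 KLF7 arrays within them, and the difference was -0.39 (SE 0.22, adjusted p 0.725 in limma). With KLF7 1 left out it was -0.23.

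Rps6, the small subunit protein that S6 kinases phosphorylate downstream of mTOR, had the smallest standard error of the small subunit genes. It was at 11.76, 12.05, 11.77 and 11.68 on the KLF7 arrays and 11.95, 12.11, 12.08 and 12.09 on the control arrays. Here KLF7 4 was low as well, and KLF7 2 overlapped control 1 only. The difference was -0.24 (SE 0.15, adjusted p 0.766 in limma), and it stayed between -0.32 and -0.20 when single arrays were left out. Rps19, the gene most often mutated in Diamond-Blackfan anaemia, was at 8.90, 9.65, 8.98 and 9.48 on the KLF7 arrays, against 9.33, 9.42, 9.86 and 9.78 on the control arrays, a difference of -0.34 (SE 0.23, adjusted p 0.787 in limma) that was -0.23 without KLF7 1. At the upper end, Rps25, which some viral internal ribosome entry sites need, was at 11.56, 12.12, 11.84 and 12.14 on the KLF7 arrays and 11.57, 11.93, 12.06 and 12.31 on the control arrays, with a difference of -0.05 (SE 0.21). Its groups covered nearly the same range.

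**Figure D3:**
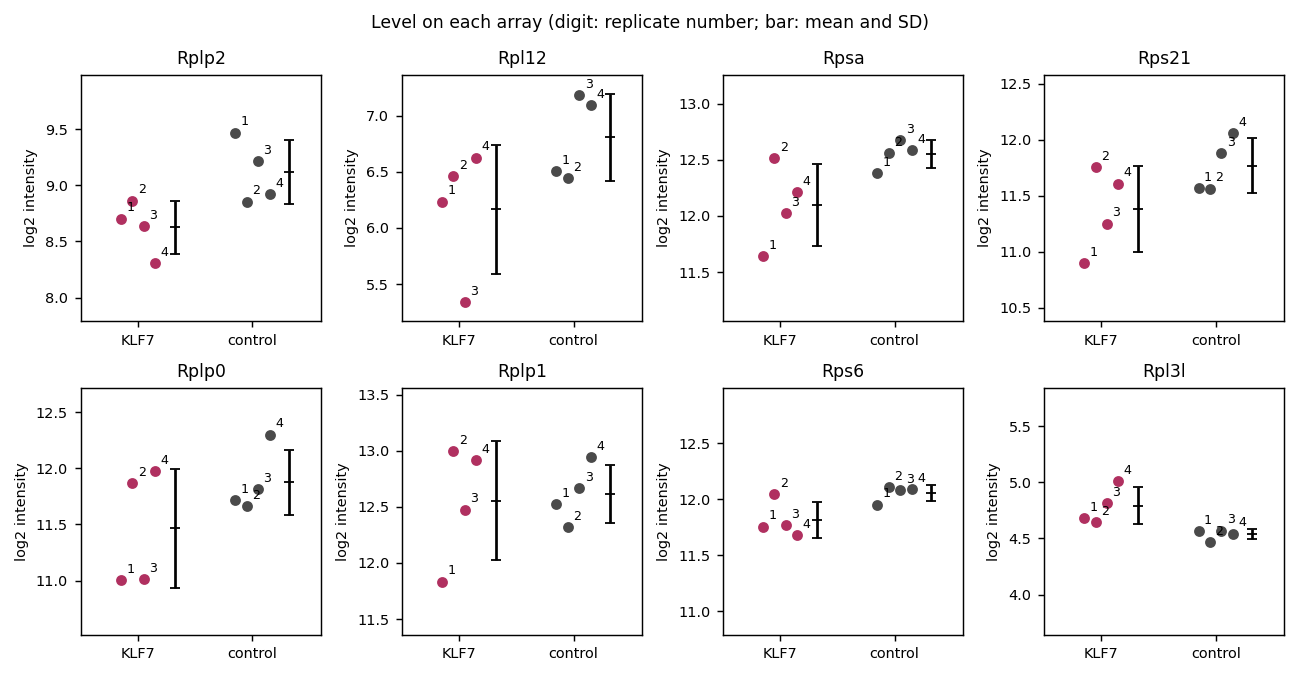
Log2 level on each array (points, numbered by replicate), with KLF7 arrays left of control arrays and the group mean and SD beside the points, for 8 of the genes described; each panel has its own vertical axis. Rplp2, Rpsa and Rps6 lie lower on most KLF7 arrays but overlap the controls, and Rpl3l is the one gene whose groups do not overlap, with KLF7 higher.

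Grouped by what is known of the proteins, the small differences did not sort clearly. The 4 stalk genes had a median of -0.45, with a range from -0.64 to -0.06. The 4 measured genes of the tunnel exit had a median of -0.18, and the 10 measured genes of the 40S head a median of -0.21. Of the 18 listed genes with mutations in Diamond-Blackfan anaemia, 8 were measured by the rule, all 8 lower in the mean, with a median of -0.19 and differences from -0.34 for Rps19 to -0.11 for Rps29. None of these had an unadjusted p under 0.05. The 26 core genes with a pyrimidine run in the window had a median of -0.24 (-0.23 for the 13 with the run over the start, -0.24 for the other 13), and the 16 without one had a median of -0.21. The core genes outside the rule, Fau and Rps3a1, had differences of -0.16 (SE 0.23) and -0.00 (SE 0.17).

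Among the paralogues, KLF7 1 was the lowest array for 4 of 7 (15.2% of all genes) and KLF7 4 the highest for 4 of 7 (16.8% of all genes). Rpl3l, which takes the place of Rpl3 in heart and skeletal muscle, was at 4.68, 4.65, 4.82 and 5.01 on the KLF7 arrays, against 4.57, 4.47, 4.57 and 4.54 on the control arrays. All KLF7 arrays lay above all controls, with KLF7 2 and control 3 the closest. The difference was 0.25 (SE 0.11, 1.19-fold) with an unadjusted p of 0.0506 and an adjusted p of 0.611 in limma. The probe set was dim, in the lower 50% of genes by mean level, as were those of Rpl10l and Rpl39l. Rpl10l, a testis-specific copy of the X-linked Rpl10, was at 4.07, 4.45, 4.28 and 4.43 on the KLF7 arrays, against 4.54, 4.16, 4.19 and 4.46 on the control arrays, a difference of -0.03 (SE 0.13). Rpl39l, also known from testis, was at 3.04, 3.08, 3.19 and 2.72 on the KLF7 arrays, against 3.14, 3.15, 3.09 and 2.71 on the control arrays, a difference of -0.01 (SE 0.14). In both genes the groups covered much the same range.

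Rps27l, a p53 target gene and paralogue of Rps27, had the largest spread among the paralogues, with 8.81, 9.89, 8.91 and 10.34 on the KLF7 arrays and 8.98, 9.44, 9.55 and 10.15 on the control arrays. Its means were nearly level, with a difference of -0.05 (SE 0.37), and both arrays numbered 4 were the highest of their group. Rpl7l1, a factor of large subunit assembly, was at 6.97, 7.68, 6.46 and 7.91 on the KLF7 arrays, against 7.16, 7.11, 7.49 and 7.77 on the control arrays, a difference of -0.13 (SE 0.31). Rps4l, which RefSeq lists as a transcribed pseudogene, was at 5.37, 6.02, 5.90 and 6.50 on the KLF7 arrays, against 6.32, 5.42, 5.53 and 6.43 on the control arrays, a difference of 0.02 (SE 0.29). Its second probe set, with a mean log2 level of 5.74 against 5.94 for the kept one, had a difference of -0.21. Rpl32l was at 6.48, 7.34, 7.19 and 6.90 on the KLF7 arrays, against 7.27, 7.19, 7.30 and 6.52 on the control arrays, a difference of -0.09 (SE 0.24). For all 4 of these genes the groups overlapped. The median of the 7 paralogues, -0.03, was near 0 and changed sign with the arrays used: it was 0.07 without KLF7 1, 0.04 without KLF7 3, 0.03 without control 1 and 0.01 without control 4.

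For 3 pairs, both the paralogue and its core partner were measured, and the log2 ratio of the pair within each array was compared between the groups. Rpl7, of the large subunit, was at 11.08, 11.87, 11.48 and 11.81 on the KLF7 arrays, against 11.59, 11.74, 11.74 and 12.10 on the control arrays, a difference of -0.23 (SE 0.21) that was -0.07 without KLF7 1 and -0.13 without control 4. Rpl10, which joins the large subunit late in its assembly, was at 11.88, 12.38, 11.93 and 12.41 on the KLF7 arrays, against 12.13, 12.07, 12.17 and 12.48 on the control arrays, a difference of -0.06 (SE 0.18). Rps4x, of the small subunit, was at 11.28, 11.95, 11.39 and 11.84 on the KLF7 arrays, against 11.87, 11.53, 11.79 and 11.96 on the control arrays, a difference of -0.18 (SE 0.20) that ran between -0.29 (without KLF7 2) and -0.06 (without KLF7 1) when single arrays were left out. In all 3 partners KLF7 1 and KLF7 3 lay below every control, and KLF7 2 and KLF7 4 within the range of the controls. The ratio of Rpl7l1 to Rpl7 differed by 0.10 (p = 0.743), that of Rpl10l to Rpl10 by 0.03 (p = 0.8) and that of Rps4l to Rps4x by 0.20 (p = 0.429) in exact two-sided permutation tests over 70 splits, with an adjusted p of 0.8 for each of the 3. No shift between paralogue and partner was detectable with 4 arrays a group. The ratio of Rps4l to Rps4x was -5.66 ± 0.30 on the KLF7 arrays and -5.87 ± 0.38 on the control arrays (SD, n = 4 each), so the shift was smaller than the spread between arrays. With the probe sets of each gene averaged, this shift was 0.14.

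The size of the shift depended on which arrays were set against each other. KLF7 1 was below each control array in the median of the core genes, by between -0.91 (against control 4) and -0.49 (against control 2), with 51 to 53 of 53 core genes lower. KLF7 3 was also below each, by between -0.64 and -0.21. KLF7 2 and KLF7 4 were above control 1 (0.20 and 0.26), control 2 (0.20 and 0.25) and control 3 (0.09 and 0.11), and below control 4 (-0.19 and -0.19). Between arrays of the same number, the median was -0.52 for number 1, 0.20 for number 2, -0.37 for number 3 and -0.19 for number 4. Of the 53 core genes, 5 were lower on KLF7 2 than on control 2 and 50 were lower on KLF7 4 than on control 4.

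With all arrays the core median was -0.21. It was -0.06 without KLF7 1, where 38 of 53 core genes were lower, -0.16 without KLF7 3 (48 lower) and -0.13 without control 4 (43 lower). It was -0.31 without KLF7 2 and -0.30 without KLF7 4, with all 53 lower in both fits. Without control 1, control 2 or control 3 it was -0.26, -0.25 and -0.21. With both arrays numbered 4 left out it was -0.21 with all 53 lower. When limma weighted each array by its agreement with the rest, it was -0.10 with 43 lower. In none of these fits did a member have an adjusted p under 0.05. The count of members at an unadjusted p under 0.05 was 3 of 60 with all arrays, beside 8.21% of all genes. It was 6 without KLF7 2, 5 of them lower (7.55% of all genes), and 2 without KLF7 1, 1 of them lower (6.96%). It was 1 without control 1 (7.08%) or control 4 (8.95%), and 0 without KLF7 3 (8.02%) or control 3 (6.06%).

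**Figure D4:**
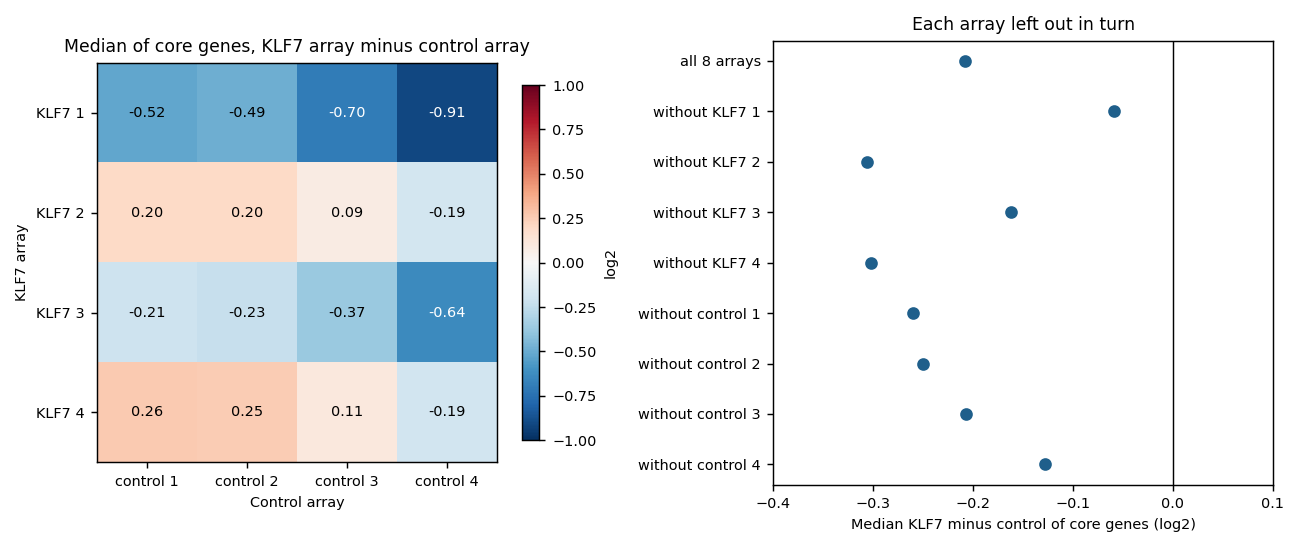
Left, median over the 53 core genes of the log2 level on a KLF7 array (rows) minus that on a control array (columns); right, the median difference with all 8 arrays and with each array left out. The rows of KLF7 1 and KLF7 3 are negative throughout, those of KLF7 2 and KLF7 4 are negative against control 4 only, and the median runs from -0.31 without KLF7 2 to -0.06 without KLF7 1.

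Other genes of the same translation programme gave values close to these. Of 19 measured genes whose mRNAs are also of the TOP class, such as translation elongation factors, 18 averaged lower in the KLF7 group (median -0.25). Their mean log2 level was 9.85, 10.50, 9.94 and 10.53 on the KLF7 arrays and 10.30, 10.26, 10.49 and 10.78 on the control arrays, with KLF7 1 and KLF7 3 lowest and control 4 highest, as for the ribosomal protein genes. None had an adjusted p under 0.05 in limma. Beside 8.21% of all genes, 1 of the 19 had an unadjusted p under 0.05. This was Npm1, the nucleolar protein nucleophosmin, at 9.81, 10.23, 9.50 and 10.26 on the KLF7 arrays, against 10.33, 10.54, 10.56 and 10.50 on the control arrays. The difference of Npm1 was -0.53 (SE 0.21, adjusted p 0.520 in limma). Groups did not overlap for 2 of the 19, Npm1 and Pabpc1, both lower, beside 2.38% of all genes in that direction. Pabpc1 differed by -0.26 (SE 0.16, adjusted p 0.753 in limma) and is named here after its values were seen.

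Ribosomal protein chaperones and assembly factors averaged lower in the KLF7 group for 17 of 22 genes (median -0.20). Wdr12 and Pes1, which act together in the PeBoW complex of large subunit maturation, had the smallest p. Wdr12 differed by -0.88 (SE 0.32, adjusted p 0.481 in limma). Pes1 was at 7.04, 7.20, 7.01 and 7.39 on the KLF7 arrays, against 7.39, 7.73, 7.56 and 7.89 on the control arrays, and differed by -0.48 (SE 0.17, adjusted p 0.474 in limma), with KLF7 4 and control 1 nearly equal. Of 13 regulators of TOP mRNA translation, 9 averaged lower (median -0.10). Larp1, the repressor and stabiliser of TOP mRNAs, differed by -0.20 (SE 0.17, adjusted p 0.871 in limma), and its relative Larp4, which binds poly(A) tails, by -0.62 (SE 0.21, adjusted p 0.454 in limma).

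Myc had log2 levels of 10.41, 10.69, 10.83 and 10.87 on the KLF7 arrays, against 11.52, 11.37, 11.29 and 11.13 on the control arrays. All KLF7 arrays lay below all controls, as for 2.38% of all genes. KLF7 3, the second lowest array for the core genes, was close to the highest KLF7 array for Myc. Control 4, the highest array for the core genes, was the lowest control for Myc. The part of Myc in the values of the ribosomal protein genes was not tested. The difference of Myc was -0.63 (SE 0.17, unadjusted p 0.0046, adjusted p 0.368 in limma). Over the 6 measured genes of the Myc network, 3 averaged lower and 3 higher (median -0.02). The list was not split into activators and repressors, so its median is no measure of the network's activity.

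Markers of other cell types were not level between the arrays. Of 17 monocyte, macrophage and dendritic cell markers, 16 averaged higher in the KLF7 group (median 0.69). Of all 19938 genes, 10040 averaged higher. For 9 of the 17 markers, all higher, the unadjusted p in limma was under 0.05, beside 4.65% of all genes in that direction. The adjusted p was under 0.05 for 0 of the 17. The summed intensity of these markers spanned 10937 to 23147 units on the KLF7 arrays and 5672 to 14035 units on the control arrays. The mean log2 levels of the single markers ran from 6.80 to 11.11, on a scale in which no deposited intensity is 0. The array labelled KLF7 1, the lowest for the ribosomal protein genes, had the highest mean level of these markers (9.64), but KLF7 3, the next lowest, had 8.57, below KLF7 2 (8.93) and KLF7 4 (9.36). The control arrays had 8.72, 8.12, 7.80 and 8.98. All 14 measured NF-kB genes averaged higher in the KLF7 group (median 0.47), with a mean level of 8.48, 7.74, 7.80 and 7.45 on the KLF7 arrays, against 7.41, 7.19, 7.03 and 7.35 on the control arrays. KLF7 1 was again the extreme array.

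Neutrophil and mast cell markers had a mean level of 9.04, 10.01, 10.90 and 7.87 on the KLF7 arrays, against 9.68, 9.94, 10.87 and 7.69 on the control arrays, so they split the arrays by number and not by group, with both arrays numbered 4 lowest. Their summed intensity spanned 4865 to 33931 units on the KLF7 arrays and 3848 to 35096 units on the control arrays. Of 7 erythroid markers, 6 averaged lower in the KLF7 group (median -0.13), with summed intensities of 504 to 715 units on the KLF7 arrays and 505 to 915 units on the control arrays. Lymphoid markers summed to 966 to 3384 units on the KLF7 arrays and 1181 to 2479 units on the control arrays, with 5 of 11 lower. Stem and progenitor markers were lower in 3 of 11, with a median of 0.18, but 2 of these 3 had an unadjusted p under 0.05 and groups that did not overlap. Lower on the KLF7 arrays, 3.56% of all genes had such a p and 2.38% such groups. These 2 markers were Hlf, a transcription factor of stem cells (-0.90, SE 0.23, adjusted p 0.327 in limma), and Myb, a transcription factor that progenitors need (-0.91, SE 0.24, adjusted p 0.356 in limma). The mean of the list over its genes was 7.96 ± 0.09 on the KLF7 arrays and 7.98 ± 0.18 on the control arrays (SD, n = 4 each). The part of these markers in the values of the ribosomal protein genes was not tested.

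**Figure D5:**
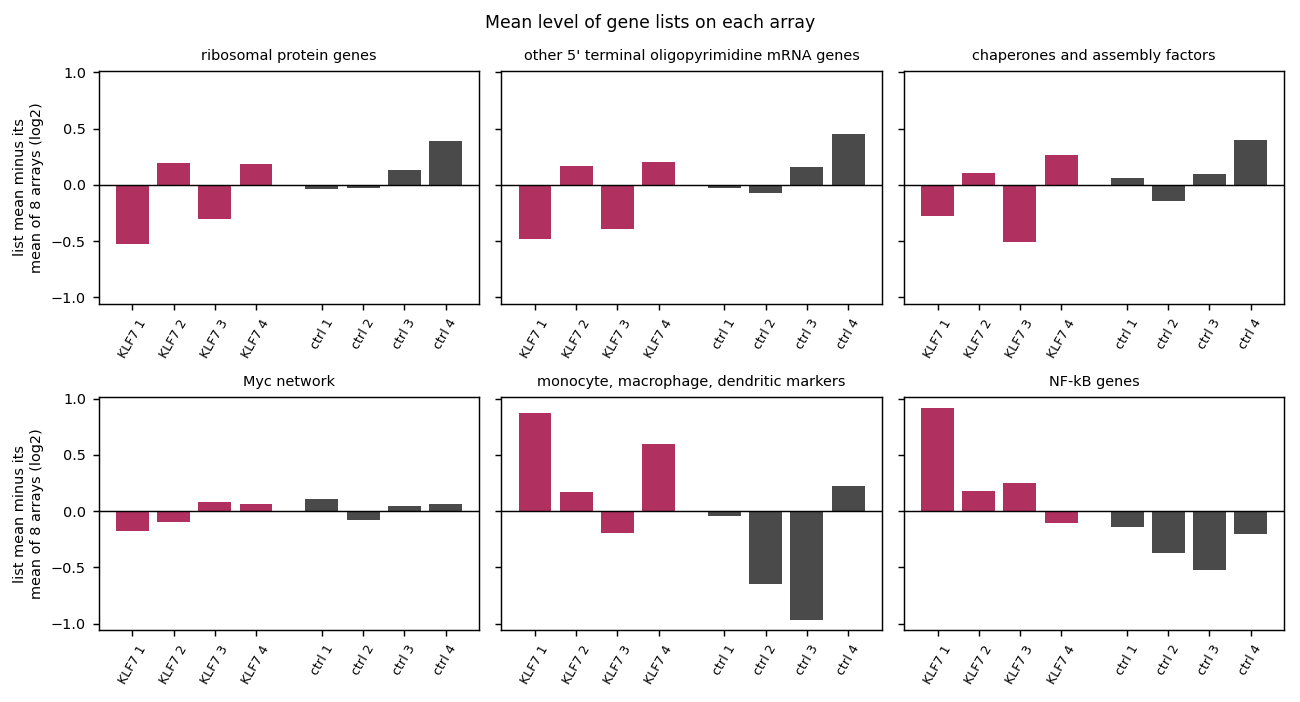
Mean log2 level of each gene list on each array minus the list's mean over the 8 arrays, KLF7 arrays in red left of control arrays in grey. Ribosomal protein, other TOP mRNA and assembly genes are low on KLF7 1 and KLF7 3 and high on control 4, while the monocyte, macrophage and dendritic markers and the NF-kB genes are highest on KLF7 1.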

How the data were processed

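Total RNA of 8 sorted cell samples, 4 per group, was amplified (NuGen Ovation), labelled with biotin and hybridised to single-colour arrays, per the labels' protocols. The deposited values are intensity values on a linear scale; per the submitters' processing notes, the authors used RMA and Affymetrix Expression Console. RMA adjusts background, normalises between arrays and summarises probes, so a shift shared by most genes of an array is removed, and amplification can compress differences. For their versions and for the build, the sources used here give nothing. Intensities ran from 2.20 to 15393, with array medians of 46.2 to 54.1, and log2 was taken with no pseudocount. The number of arrays limits the precision.

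Of 35554 probe sets, 21789 carried 1 symbol, 1621 several and 12144 none. Names came from the platform annotation. The probe set with the highest mean was kept per gene, giving 19938 genes, dim ones included. The 60 members matched RefSeq by Entrez number. Groups were compared with limma 3.58.1 (R 4.3.3; lmFit, eBayes with an intensity trend, two-sided, Benjamini-Hochberg over all genes, threshold 0.05). Klf7 and 3 paralogue pairs were compared with exact permutation tests (numpy 2.4.6). The fit was tested on simulated data. Values on each array were given for the 4 members per subunit with the smallest unadjusted p, those with the highest and the smallest absolute difference, the paralogues and their partners, the stalk and 5S particle genes, Rpsa, Rps6 and Rps19. Up to 3 members of each other list, Myc and Larp1 could be named as well. Kit and the genes said to be named after their values were seen, and Fau and Rps3a1, stand outside this rule. Rpl32l was in no list and was placed with the paralogues after its annotation was seen. The members and lists were chosen with earlier results of these data known. Alternatives left out arrays, blocked on the number, changed the normalisation, weighted the arrays, left out dim genes, averaged probe sets or dropped the trend. Figures were drawn with matplotlib 3.10.9.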

Additional observations from a re-analysis of the deposited data

Results flagged for a closer look

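Of the 54 groups of 4 arrays examined for an array far from the others (22 named members, Klf7 and the means of all, large subunit, small subunit and paralogue genes, in each group), 2 held one, and chance alone gives about 1 in 20. On the control arrays Rps6 was lowest on control 1, at 11.95, with the other 3 control arrays between 12.08 and 12.11. On the control arrays Rpl39l was lowest on control 4, at 2.71, with the other 3 between 3.09 and 3.15. The array labelled KLF7 4 was also the lowest KLF7 array for Rpl39l, whose probe set was dim.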

How the results depend on the processing

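The members called at an adjusted p under 0.05 numbered 0 in all 19 alternatives. Genes called overall numbered 90 with the replicate block and 0 to 1 when single arrays were left out. The replicate block left every median as it was and called no member. Deviations from the group means correlated at 0.35, -0.13, 0.36 and 0.70 across genes between the arrays numbered 1, 2, 3 and 4. Between arrays of different number the values ran from -0.558 to 0.319. For numbers 1, 3 and 4 no array of the other group correlated better, while for number 2 others did. The labels do not say what the numbers share, so the main fit did not pair the arrays. A batch by number was not tested. Members at an unadjusted p under 0.05, 3 with all arrays, numbered 9 with cyclic loess, all lower, beside 8.84% of all genes. They numbered 1 with array weights (10.7%), 1 among genes with a mean level over 10 (17.0% of those 247) and 0 without both arrays numbered 4 (9.66%). When single arrays were left out, they numbered 0 to 6, beside 6.06% to 9.88% of all genes.

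Medians moved by less than the spread between replicates, which was 0.28 for all members. With all arrays, that spread was larger than the medians themselves, so it cannot show that they held. The median of all members was -0.19 with all arrays, -0.05 without KLF7 1 and -0.08 with array weights. That of the paralogues changed sign: it ran from -0.08 to 0.07 when single arrays were left out and was 0.04 with array weights. For the pairs, the difference of Rpl7l1 and Rpl7 was -0.0044 without both arrays numbered 4, -0.0057 without the arrays KLF7 2 and control 2, and -0.0309 to 0.342 when single arrays were left out, and that of Rpl10l and Rpl10 was -0.0366 with quantile normalisation again and -0.032 to 0.127 when single arrays were left out. Pairs were not recomputed under array weights, without the trend, or without dim genes.

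Among the named members, 38 of 405 alternative values had the opposite sign, and 367 did not. With array weights Rps25 was at 0.0357, Rpl10l at 0.0405, Rpl10 at 0.0282, Rps27l at 0.10, Rplp1 at 0.11 and Rpl5 at 0.0042. With quantile normalisation again Rps25 was at 0.0089 and Rpl10 at 0.0062. Without the arrays KLF7 2 and control 2, Rpl39l was at 0.0046 and Rps4l at -0.17, and with probe sets averaged Rps4l was at -0.0909. When single arrays were left out, Rpl30 ran from -0.10 to 0.0799, Rps25 from -0.19 to 0.0641, Rpl7l1 from -0.35 to 0.14, Rpl10l from -0.0877 to 0.0489, Rpl10 from -0.15 to 0.0293, Rpl39l from -0.12 to 0.0845, Rps4l from -0.16 to 0.22, Rps27l from -0.33 to 0.18, Rplp1 from -0.21 to 0.18 and Rpl5 from -0.31 to 0.0092. For values this close to 0, the cause was not tested. Dim probe sets, such as those of Rpl3l, Rpl10l, Rpl39l and Rpl12, limit what can be read for these genes.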
